A study of Mus musculus with 24 samples.

Results

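The genes described here are 10 glucocorticoid-related genes of the mouse liver, taken by symbol out of 56941 genes in the count table: 8 genes known to respond to glucocorticoids (Fkbp5, Tsc22d3, Tat, Sgk1, Klf9, Zbtb16, Dusp1 and Errfi1), the gene of the glucocorticoid receptor (Nr3c1) and the gene of an enzyme that activates the hormone inside cells (Hsd11b1). They were read by RNA-seq of polyadenylated liver RNA in 24 libraries, 3 for each of 8 groups that combined 4 genotypes with the circadian times CT2 (early subjective day) and CT14 (early subjective night). Global knockouts of the clock gene Bmal1 (Bmal1-/-, KO) were set against wild-type Bmal1+/+ mice (WT), both bred from C57BL/6J Bmal1+/- parents. Mice with Alb-Cre and floxed Bmal1, which lack the gene in the liver (LKO), were compared with mice with the same floxed alleles and no Cre (Bmal1 f/f, F). The albumin promoter that drives this Cre is active chiefly in hepatocytes, so other liver cells of LKO mice, and all other organs, keep BMAL1. A group with Alb-Cre and intact Bmal1 was not analysed here, and the labels give neither age, sex nor lighting. The labels do not say whether the 3 libraries of a group came from separate mice. Were they technical repeats, each p-value would describe the scatter of these libraries and not that of mice.

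Glucocorticoids, in mice mainly corticosterone, are secreted by the adrenal gland with a daily rhythm that peaks near the onset of activity, at the start of the night. In target cells the hormone binds the glucocorticoid receptor, which leaves its chaperone complex, enters the nucleus and acts on genes through response elements. In the liver it raises enzymes of amino acid breakdown and glucose production, and it raises genes that damp its own signal. The daily hormone signal comes from outside the liver, so the comparison of CT14 with CT2 in LKO asks which time differences of these genes are found where hepatocytes lack BMAL1 and the rest of the body has it, and the same comparison in KO asks which are found where BMAL1 is missing everywhere. The hormone itself was not measured.

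Promoter windows of Fkbp5, Tsc22d3, Tat and Sgk1 are given because they show which recognition letters lie next to a start site. Sgk1 passed in none of the planned comparisons described below. Of the several windows of Tsc22d3 and of Sgk1, the one with the most motif matches is printed. All are 300-base windows, from 250 bases before to 50 bases after a start site, taken from RefSeq on build GRCm38.p6, which is not the build of the counts. The search covered windows of 8 of the 10 members, 16 windows in all, with several for genes with several starts. No window of Zbtb16 or Nr3c1 was searched. Capitals mark 3 motifs searched on both strands: the palindromic glucocorticoid response element GNACANNNTGTNC, its half-site AGAACA, and the E-box CACGTG to which BMAL1 and CLOCK bind. The Fkbp5 window (chr17:28486100-28486399, minus strand), the second Tsc22d3 window (chrX:140600473-140600772, minus strand), the Tat window (chr8:109990186-109990485, plus strand) and the fifth Sgk1 window (chr10:21993640-21993939, plus strand) read as follows, 5′ to 3′.
Fkbp5: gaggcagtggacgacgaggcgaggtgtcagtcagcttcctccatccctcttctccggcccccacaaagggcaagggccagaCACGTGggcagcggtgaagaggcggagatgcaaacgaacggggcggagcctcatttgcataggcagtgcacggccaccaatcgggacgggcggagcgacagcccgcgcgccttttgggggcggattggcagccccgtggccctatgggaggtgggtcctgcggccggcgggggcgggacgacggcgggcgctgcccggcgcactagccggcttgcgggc
Tsc22d3: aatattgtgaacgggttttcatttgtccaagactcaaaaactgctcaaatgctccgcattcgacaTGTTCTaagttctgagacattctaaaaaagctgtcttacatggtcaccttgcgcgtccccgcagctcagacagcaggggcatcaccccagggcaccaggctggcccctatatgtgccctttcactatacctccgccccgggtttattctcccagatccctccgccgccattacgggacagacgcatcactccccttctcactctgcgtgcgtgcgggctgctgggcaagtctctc
Tat: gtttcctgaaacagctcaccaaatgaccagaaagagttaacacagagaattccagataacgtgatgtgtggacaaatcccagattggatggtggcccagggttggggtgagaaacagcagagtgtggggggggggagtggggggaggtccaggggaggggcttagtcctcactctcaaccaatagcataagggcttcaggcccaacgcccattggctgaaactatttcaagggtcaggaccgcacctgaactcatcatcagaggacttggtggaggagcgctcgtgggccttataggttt
Sgk1: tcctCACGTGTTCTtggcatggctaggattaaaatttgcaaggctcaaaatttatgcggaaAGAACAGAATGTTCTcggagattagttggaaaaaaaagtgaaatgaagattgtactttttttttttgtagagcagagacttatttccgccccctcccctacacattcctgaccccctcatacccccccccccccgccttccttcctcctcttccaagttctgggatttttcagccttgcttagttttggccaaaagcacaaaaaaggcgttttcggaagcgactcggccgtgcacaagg

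Counted from the start site as 0, the Fkbp5 window held 1 E-box at -169 and neither glucocorticoid motif. The Tsc22d3 window held 1 half-site at -185. The Sgk1 window held the palindrome at -188, half-sites at -242, -189 and -180, and an E-box at -246 that overlaps the first half-site. The half-sites at -189 and -180 are the arms of that palindrome. The Tat window held none of the 3, nor did the other Tsc22d3 windows or the Hsd11b1 window, which are not printed. Of the other Sgk1 windows, the first and the fourth held a half-site, at -195 and -13, and the rest held no motif. Of the members with a searched window, 1 had a palindrome (Sgk1), 2 a half-site (Sgk1 and Tsc22d3) and 3 an E-box (Fkbp5, Sgk1 and Dusp1). Counted by window, as the shares that follow are, 1 of the 16 held a palindrome, 4 a half-site and 3 an E-box. Among all 32851 promoter windows of the table, the palindrome was found in 0.475%, the half-site in 19% and the E-box in 7.15%. These matches describe letters within these windows and nothing beyond them.

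Estimated counts summed to between 88995259 and 131544733 per library, and every member passed the filter on low counts, with 482 or more estimated counts in each library. Levels are given as CPM, TMM-scaled. Per length, as the median TPM over the 24 libraries, Tat (624) and Hsd11b1 (606) were the most abundant members, followed by Errfi1 (316), Tsc22d3 (72), Fkbp5 (19.2), Klf9 (18.7), Dusp1 (18.2), Nr3c1 (16), Sgk1 (12.3) and Zbtb16 (4.46). Bmal1 averaged 31.9 CPM in WT and 28.5 CPM in F at CT2 against 7.39 in KO and 7.37 in LKO, while at CT14 the controls were low themselves. All 9 hepatocyte markers were present in every library, and their summed level, most of it Alb, was 57375 to 92504 CPM in KO, 63581 to 91004 in LKO, 85537 to 119889 in WT and 95308 to 138632 in F. Some libraries stood apart from their groups. KO CT14 replicate 3 had 2388 CPM summed over 12 interferon-stimulated genes (67 to 301 in all others). F CT2 replicate 3 and LKO CT2 replicate 3 had the lowest mitochondrially encoded sums (13953 and 18759 CPM, others 19267 to 51946). KO CT2 replicate 2 was close to the second of these (19267 CPM). Transcripts of 11 pancreatic acinar genes summed to 2619.7 CPM in F CT2 replicate 3 and 836 in F CT14 replicate 3 (24.8 to 102 in all others). KO CT2 replicate 2 and KO CT14 replicate 1 carried spermatid transcripts (15.7 and 17.2 CPM) like the F and LKO libraries (13.5 to 41.1) and unlike the other KO and the WT libraries (5.36 to 9.15).

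Of the 10 members, 3 rose from CT2 to CT14 in WT, 2 in F, 2 in LKO and none in KO. Those that rose in LKO were Fkbp5 and Tsc22d3, which rose in F and WT as well, and the other member that rose in WT was Tat. The shares of all 20514 tested genes that were higher at CT14 by the same test were 1.1% in WT, 1.33% in F, 0.444% in LKO and 0% in KO. In either direction these shares were 2.54%, 2.66%, 0.848% and 0%. The median log2 difference of the 10 members was 0.63 in WT, 0.37 in F, 0.51 in LKO and 0.31 in KO, against medians of 0, 0.03, -0.01 and 0 over all tested genes. In LKO all 10 members had a difference above 0, with 8 in WT, 7 in F and 8 in KO. In KO the edgeR test called no gene of any kind, 753 genes (3.67%) had an unadjusted p under 0.05, and no member was among them. DESeq2 called 41 genes in KO, of which 0 were members.

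**Figure D1:**
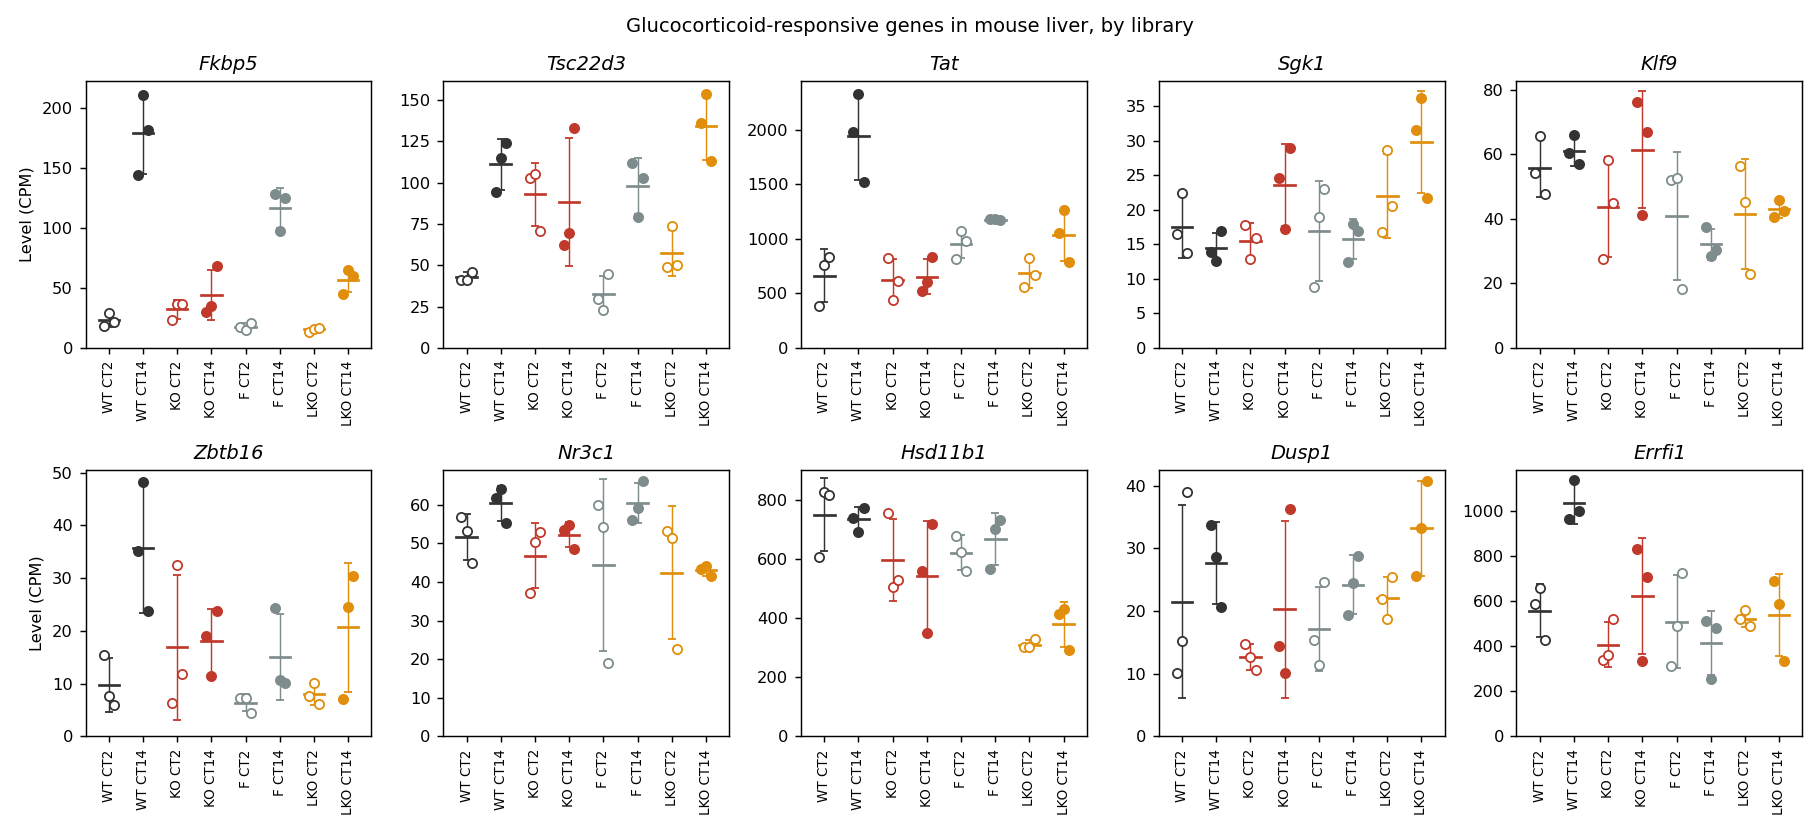
Level of each member in every library, in CPM on a linear axis, for the 4 genotypes at CT2 (open points) and CT14 (filled points), with bars for the mean and SD of 3 libraries. Fkbp5 at CT14 lies between 44.9 and 64.6 CPM in LKO, above all 3 LKO libraries at CT2, while the 2 times overlap in KO.

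Fkbp5 (ENSMUSG00000024222) encodes FKBP51, a co-chaperone that lowers the receptor's affinity for its hormone and so closes a feedback loop. Its WT values were 18.3, 29.4 and 21.8 CPM (CT2), then 144, 211 and 182 CPM (CT14). Its F values were 17, 14.6 and 21 CPM (CT2), then 128, 97.2 and 125 CPM (CT14). In both controls every library at CT14 lay far above every library at CT2. The LKO libraries had 13.5, 15.9 and 16.7 CPM (CT2), then 44.9, 64.6 and 60.3 CPM (CT14). These groups did not overlap either, and the LKO libraries at CT14 stayed below every control library of that time. The KO libraries had 22.9, 36.9 and 36.6 CPM (CT2), then 30.2, 34.6 and 68.4 CPM (CT14). In KO the times overlapped, and only replicate 3 of CT14, the library with high interferon-stimulated genes, was above the CT2 range.

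The rise of Fkbp5 was 7.73-fold in WT (log2 2.95 ± 0.29 SE, adjusted p = 2.81e-06) and 6.66-fold in F (log2 2.74 ± 0.28, adjusted p = 1.09e-05). In LKO it was 3.69-fold (log2 1.88 ± 0.28, 95% interval 1.31 to 2.46, adjusted p = 0.00311), and it passed in all 15 alternative settings, with log2 values from 1.78 to 2.02. In KO the log2 difference was 0.47 ± 0.27 (95% interval -0.09 to 1.02, adjusted p = 1). Without KO CT14 replicate 3 it was 0.01, and without the KO libraries that carried spermatid transcripts it was 0.79, with an adjusted p of 1 in both. Over the 8 groups the mean levels ran from WT CT14 (179 CPM) through F CT14 (117), LKO CT14 (56.6), KO CT14 (44.4), KO CT2 (32.2), WT CT2 (23.1) and F CT2 (17.5) to LKO CT2 (15.4). WT CT14 and F CT14 were each separated from the next group, and every later neighbour in this order overlapped the next.

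Tsc22d3 (ENSMUSG00000031431) encodes GILZ, a leucine zipper protein through which glucocorticoids restrain inflammatory signalling. Values in WT were 41, 41 and 46.2 CPM (CT2), then 94.2, 115 and 124 CPM (CT14). Values in F were 29.5, 22.9 and 44.6 CPM (CT2), then 112, 79 and 103 CPM (CT14). The LKO libraries had 49.2, 73.6 and 50 CPM (CT2), then 136, 154 and 113 CPM (CT14). CT14 was above CT2 in every library of these 3 genotypes, and LKO CT14 had the highest mean of the 8 groups (134 CPM), though it overlapped WT CT14. The KO libraries had 103, 105 and 70.8 CPM (CT2), then 62.5, 69.4 and 133 CPM (CT14). In KO every library at CT2 was above every control library of that time, and the times overlapped.

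Tsc22d3 rose 2.6-fold in WT (log2 1.38 ± 0.27, adjusted p = 0.00551), 3.03-fold in F (log2 1.60 ± 0.27, adjusted p = 0.00235) and 2.33-fold in LKO (log2 1.22 ± 0.27, 95% interval 0.66 to 1.79, adjusted p = 0.0383). The LKO call was near the threshold: without any single one of the 6 LKO libraries the log2 difference was 1.11 to 1.44 and the adjusted p 0.077 to 0.19. The LKO value kept its sign in all 15 settings and passed in 5. In KO the log2 difference was -0.08 ± 0.27 (95% interval -0.63 to 0.48, adjusted p = 1). It was -0.50 without KO CT14 replicate 3 and 0.22 without the KO libraries with spermatid transcripts. Leukocytes also express Tsc22d3, and the summed level of 7 neutrophil markers was 3.16 to 39.1 CPM in LKO CT2 and 1.13 to 3.63 CPM in LKO CT14. Lymphocyte markers summed to 9.25 to 21.8 CPM in LKO CT2 and 10.2 to 13.3 in LKO CT14. Kupffer cell and macrophage markers summed to 692 to 961 and 516 to 769 CPM. The part of these cells in the result was not tested. In whole liver, fewer cells of a type and less RNA per cell cannot be told apart.

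Tat (ENSMUSG00000001670) encodes tyrosine aminotransferase, the hepatocyte enzyme of tyrosine breakdown that is a classical glucocorticoid target. Values in WT were 382, 763 and 837 CPM (CT2), then 1979.7, 2329 and 1519 CPM (CT14). Values in F were 814, 1071 and 976 CPM (CT2), then 1177, 1181 and 1168 CPM (CT14). The times did not overlap in either control, but the F libraries were higher than WT at CT2 and lower at CT14, apart from 1 WT library at CT2 that lay within the F range. In LKO the levels were 556, 822 and 669 CPM (CT2), then 1056, 1263 and 786 CPM (CT14). In KO they were 820.2, 438 and 609.9 CPM (CT2), then 521, 608 and 832 CPM (CT14). The times overlapped in both knockouts, in LKO through a single library.

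Tat rose 2.94-fold in WT (log2 1.56 ± 0.28, adjusted p = 0.00237, and 0.062 when only the WT groups were fitted). It did not pass in F (log2 0.30 ± 0.27, adjusted p = 0.678) or in LKO (log2 0.60 ± 0.27, 95% interval 0.03 to 1.17, adjusted p = 0.385). In KO the log2 difference was 0.07 ± 0.27 (95% interval -0.50 to 0.64, adjusted p = 1).

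Among the transcription factors, Zbtb16 (ENSMUSG00000066687), which encodes the zinc finger protein PLZF, was the least abundant member and had a wide spread. Its WT values were 15.5, 7.66 and 5.9 CPM (CT2), then 35.1, 48.3 and 23.8 CPM (CT14). Values in LKO were 7.59, 10.2 and 6.14 CPM and then 7.03, 24.6 and 30.5 CPM, with 1 library at CT14 inside the CT2 range. Its log2 time difference was 1.88 ± 0.58 in WT (adjusted p = 0.112), 1.25 ± 0.57 in F (adjusted p = 0.307), 1.38 ± 0.57 in LKO (adjusted p = 0.328) and 0.09 ± 0.56 in KO (adjusted p = 1). None of these passed over all tested genes, though DESeq2 called the rise in WT (adjusted p = 0.012). Klf9 (ENSMUSG00000033863), a Krüppel-like repressor that is induced by glucocorticoids in several tissues, ranged from 18.1 to 76.4 CPM over the 24 libraries, and its log2 time differences lay between -0.35 in F and 0.50 in KO with an SE of 0.35 in each genotype. Its lowest levels were in F CT2 replicate 3 (18.1 CPM) and LKO CT2 replicate 3 (23 CPM), the libraries with the lowest mitochondrially encoded sums. Nr3c1 was also lowest in these libraries. KO CT2 replicate 2, with a sum nearly as low, had 58.4 CPM of Klf9 and 50.4 CPM of Nr3c1.

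Among the regulators of kinase signalling, Sgk1 (ENSMUSG00000019970), a kinase first described as serum- and glucocorticoid-induced, ranged from 8.85 to 36.2 CPM, and no time difference passed. Its log2 time difference was -0.28 ± 0.30 in WT, -0.10 ± 0.30 in F, 0.44 ± 0.30 in LKO and 0.60 ± 0.30 in KO. Dusp1 (ENSMUSG00000024190), a phosphatase that turns off MAP kinases, ranged from 10.1 to 40.8 CPM. Values in LKO were 22, 18.8 and 25.5 CPM (CT2), then 25.6, 33.2 and 40.8 CPM (CT14), so that the times were just separated, with a log2 difference of 0.59 ± 0.44 (adjusted p = 0.692). Errfi1 (ENSMUSG00000028967), an inhibitor of the EGF receptor, stood at 587, 659 and 430 CPM (CT2), then 965, 1141 and 1004 CPM (CT14) in WT. This WT difference did not overlap but did not pass (log2 0.89 ± 0.34, adjusted p = 0.227, and 0.0434 when only the WT groups were fitted), and the F value was -0.30 ± 0.34.

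The receptor gene Nr3c1 (ENSMUSG00000024431) ranged from 18.9 to 66.2 CPM and had log2 time differences of 0.22 ± 0.30 in WT, 0.45 ± 0.30 in F, 0.16 ± 0.30 in KO and 0.02 ± 0.30 in LKO. Hsd11b1 (ENSMUSG00000016194), whose product 11β-hydroxysteroid dehydrogenase type 1 regenerates active hormone from its inert keto form, had time differences between -0.14 ± 0.22 in KO and 0.29 ± 0.22 in LKO. Neither gene passed the test of time in any genotype. Counted by separation alone, every library was higher at CT14 than at CT2 for 5 members in WT (Fkbp5, Tsc22d3, Tat, Zbtb16 and Errfi1), 4 in F (the same without Errfi1), 3 in LKO (Fkbp5, Tsc22d3 and Dusp1) and 0 in KO, where 10.5%, 9.97%, 10.4% and 4.09% of all tested genes were separated in that direction.

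**Figure D2:**
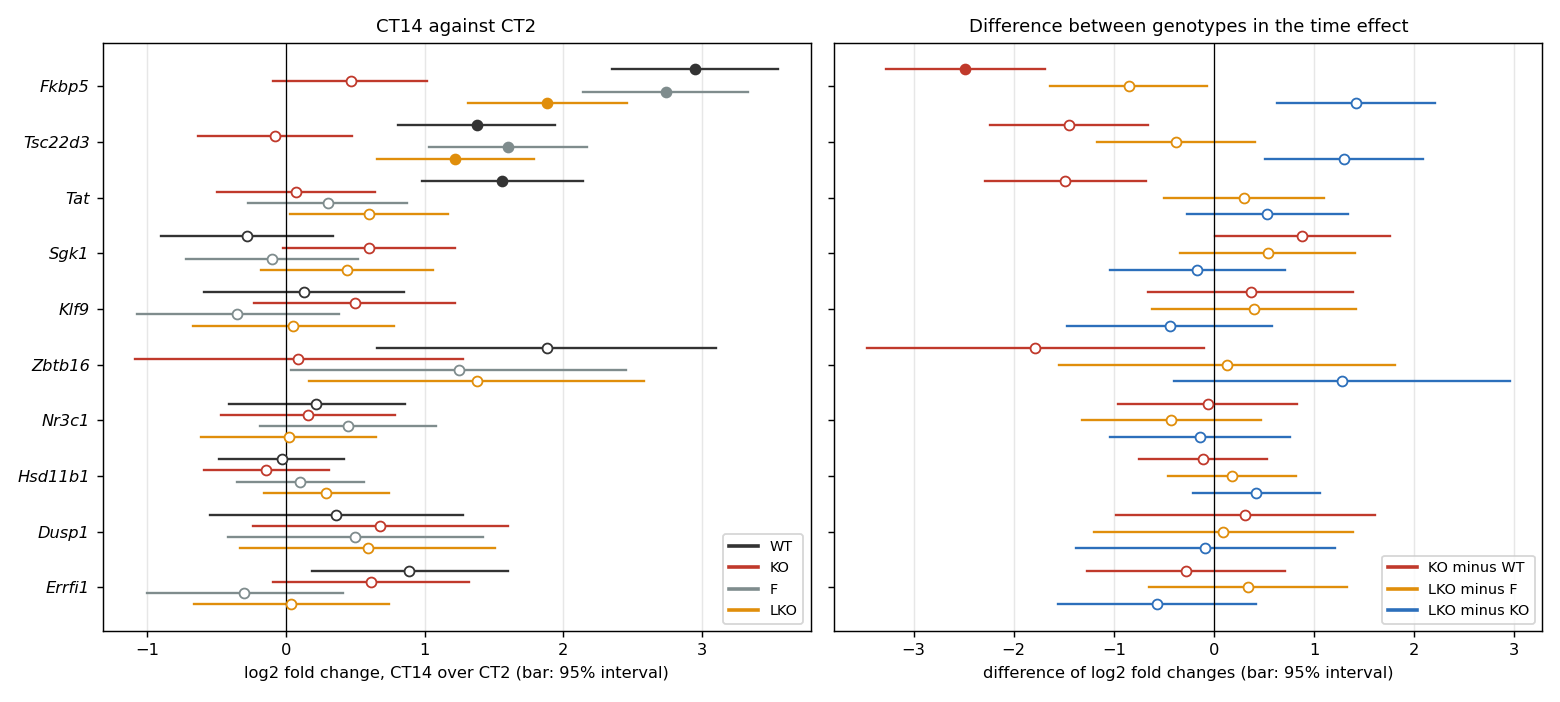
Log2 difference between CT14 and CT2 for each member in the 4 genotypes, with 95% intervals from the edgeR fit, filled where the adjusted p over all tested genes was under 0.05. Fkbp5 is filled in WT (2.95), F (2.74) and LKO (1.88) and open in KO (0.47).

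The time differences themselves were then compared between genotypes. For KO against WT, Fkbp5 alone among the members passed, with a time difference that was lower by 2.49 on the log2 scale in KO (-2.49 ± 0.38, 95% interval -3.28 to -1.69, adjusted p = 0.00179). It passed in all 21 alternative settings, between -2.94 and -2.16. In this comparison 0.799% of all tested genes passed, and 0.297% of all tested genes were called in the lower direction. Tsc22d3 (-1.45 ± 0.38, adjusted p = 0.0878) and Tat (-1.49 ± 0.39, adjusted p = 0.0866) did not pass. Tsc22d3 passed without KO CT14 replicate 3 (-1.87, adjusted p = 0.011), and both passed with DESeq2 (adjusted p = 0.0204 and 0.0146). Zbtb16 had -1.79 ± 0.80 (adjusted p = 0.497) and Sgk1 0.88 ± 0.42 (adjusted p = 0.537).

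For LKO against F, no member passed, where 0.112% of all tested genes did. The LKO time difference of Fkbp5 was smaller than the F one by a log2 value whose interval just excluded 0 (-0.85 ± 0.38, 95% interval -1.64 to -0.07) but whose adjusted p was 0.75, and 6.22% of all tested genes had an unadjusted p under 0.05. Tsc22d3 had -0.38 ± 0.38 (95% interval -1.17 to 0.41) and Tat 0.30 ± 0.39 (95% interval -0.50 to 1.10). The intervals are wide, and the values do not show that LKO and F responded alike.

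The direct comparison of the knockouts, LKO against KO, is the one that sets hepatocytes without BMAL1 in a body that has it against a body without it. The time difference of Fkbp5 was higher in LKO by 1.42 ± 0.38 (95% interval 0.63 to 2.21, unadjusted p = 0.00125, edgeR quasi-likelihood test) and that of Tsc22d3 by 1.3 ± 0.38 (95% interval 0.51 to 2.09, unadjusted p = 0.00261). Neither passed over all tested genes, with adjusted p of 0.183 and 0.235. Of all tested genes 0.0341% passed and 8.97% had an unadjusted p under 0.05. In the 21 alternative settings Fkbp5 ranged from 1.09 to 1.87 and Tsc22d3 from 1.0 to 1.72, all higher in LKO and none past the threshold. The other 8 members had an unadjusted p above 0.1 in this comparison, from -0.57 ± 0.48 for Errfi1 to 1.28 ± 0.80 for Zbtb16. KO and LKO come from different lines, and in this comparison the line and the kind of knockout cannot be told apart. In a comparison added after these values were seen, the time difference of Tat was lower in F than in WT by 1.25 on the log2 scale (-1.25 ± 0.39, 95% interval -2.06 to -0.45, adjusted p = 0.898), and those of Fkbp5 (-0.22 ± 0.38, 95% interval -1.0 to 0.57) and Tsc22d3 (0.22 ± 0.38, 95% interval -0.56 to 1.01) had intervals that included 0. By edgeR 0% of all tested genes passed there and 4.84% had an unadjusted p under 0.05, while DESeq2 called 28.

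At each time, KO was compared with WT and LKO with F. At CT14, Fkbp5 was 4.03-fold lower in KO than in WT (log2 -2.01 ± 0.28, adjusted p = 0.000104) and Tat 2.97-fold lower (log2 -1.57 ± 0.28, adjusted p = 0.00134), and both passed in all 15 alternative settings. Of all tested genes 5.31% passed in this comparison, 2.15% in the lower direction. The summed hepatocyte markers were also lower in KO at CT14 (62551 to 83933 CPM) than in WT (98383 to 112815), but of the 9 markers only Alb and Tat itself passed, and 5 had a difference above 0. The part of hepatocyte content in the fall of Tat was not tested. At CT2 the same pair did not pass (Fkbp5 0.47 ± 0.27, adjusted p = 0.671, Tat -0.08 ± 0.27, adjusted p = 1). Tsc22d3 was higher in every KO library than in every WT library at CT2, by 1.12 ± 0.27 on the log2 scale, with an adjusted p of 0.0737, in a comparison where 0.517% of all tested genes passed and 7.1% were separated in this direction. It passed in 4 of 15 alternative settings, DESeq2 among them (adjusted p = 0.00751). As the mean of both times, Fkbp5 (-0.77 ± 0.19, adjusted p = 0.0184) and Tat (-0.83 ± 0.19, adjusted p = 0.0133) were lower in KO, where 5.4% of all tested genes passed. Neither passed without the KO libraries with spermatid transcripts (adjusted p = 0.052 and 0.0869), and Fkbp5 was also lost without any 1 of 5 single libraries (WT CT2 replicate 2, WT CT14 replicate 2, KO CT2 replicate 1, KO CT14 replicate 1 and KO CT14 replicate 2, adjusted p up to 0.0581).

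Hsd11b1 was the member that was lower in LKO than in F over both times. It stood at 301, 301 and 329 CPM (CT2), then 415, 429 and 292 CPM (CT14) in LKO, against 677, 624 and 559 CPM and 566, 702 and 731 CPM in F. Every LKO library was below every F library, and below every WT library as well, where 4.46% of all tested genes at CT2 and 11.7% at CT14 were separated from F in this direction. As the mean of both times it was 1.87-fold lower in LKO (log2 -0.91 ± 0.15, 95% interval -1.23 to -0.58, adjusted p = 0.00151), and it passed in all 21 alternative settings, between -0.96 and -0.69. In this comparison 3.13% of all tested genes passed, 1.43% in the lower direction. At CT2 alone it was lower, with a log2 difference of -1.0 ± 0.22 (adjusted p = 0.0462), where 0.4% of all tested genes passed. Same-numbered F and LKO libraries deviated together at CT2 in all 3 pairs (correlations 0.14 to 0.31), and with the replicate number as a block it did not pass (adjusted p = 0.0712). The call at CT2 held in 4 of 15 settings. At CT14 the value was -0.81 ± 0.22 (adjusted p = 0.062), where 1.73% of all tested genes and no member passed. The summed hepatocyte markers were lower in LKO (63581 to 91004 CPM) than in F (95308 to 138632). Of the 9 markers Alb alone passed and 5 had a difference above 0, and no marker was at 0 in any library. Their part in the level of Hsd11b1 was not tested.

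In KO the Hsd11b1 libraries, 754, 505 and 529 CPM (CT2), then 558, 349 and 719 CPM (CT14), overlapped WT (607, 825, 815, 739, 692 and 771 CPM), with a log2 difference of -0.38 ± 0.15 over both times (adjusted p = 0.173). The test of the difference between the knockout effects, added after these values were seen, gave 0.52 ± 0.22 (95% interval 0.07 to 0.98, adjusted p = 0.506), so Hsd11b1 was not shown to differ between the 2 kinds of knockout. No member passed in that test, where 0.107% of all tested genes did. At CT14 Fkbp5 was 2.06-fold lower in LKO than in F (log2 -1.05 ± 0.27), and its adjusted p of 0.0504 lay just above the threshold. Sgk1 was higher in every LKO library than in every F library at CT14 (log2 0.92 ± 0.30, adjusted p = 0.155), as were 11.9% of all tested genes. Over the 14 planned comparisons, 4 members (Fkbp5, Tsc22d3, Tat and Hsd11b1) passed at least once and the other 6 in none. How many of all tested genes passed at least once was not counted, so this count cannot be set against a share of all genes. F and WT, as the mean of both times, had no member called, where 2.54% of all tested genes passed.

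**Figure D3:**
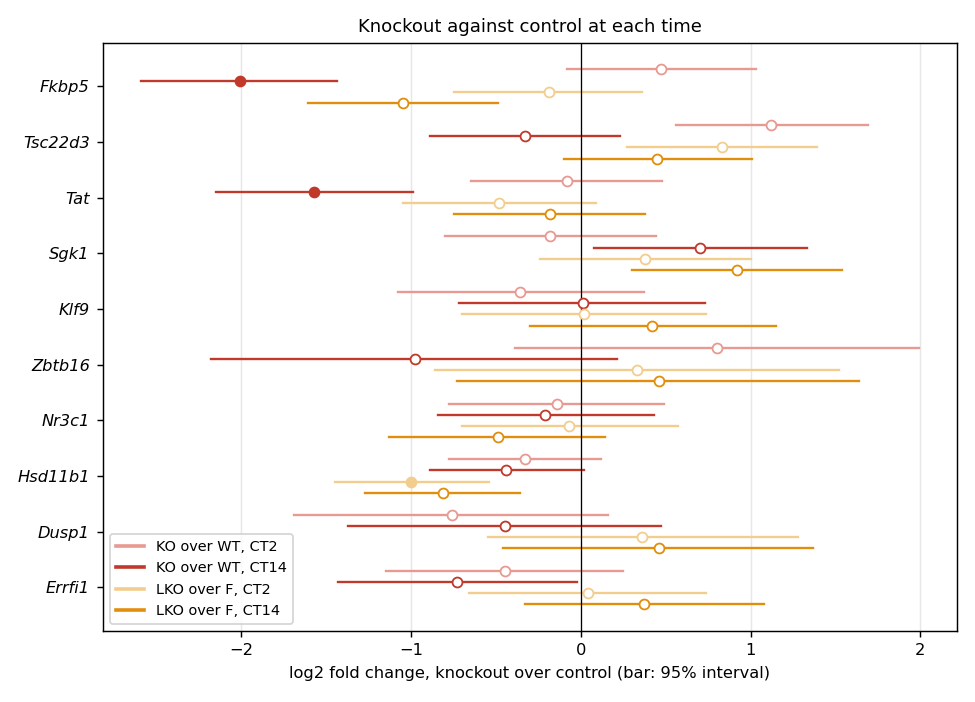
Log2 difference of KO against WT and of LKO against F at CT2 and at CT14 for each member, with 95% intervals from the edgeR fit, filled where the adjusted p was under 0.05. Fkbp5 and Tat are filled for KO at CT14 (-2.01 and -1.57), and Hsd11b1 is filled for LKO at CT2 (-1.0) and open at CT14 (-0.81).

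Other genes of the pathway came from fixed lists. Of 30 further genes described as glucocorticoid receptor targets, all tested, 7 rose and 2 fell from CT2 to CT14 in WT, 4 rose and 2 fell in F, 2 rose in LKO and none changed in KO. The list's median log2 difference was 0.34 in WT, 0.04 in F, -0.05 in LKO and 0.54 in KO. In WT the largest rises were those of the clock gene Per1 (log2 4.09 ± 0.68, adjusted p = 0.00175), which has its own glucocorticoid response element and E-boxes, and of Lpin1 (3.98 ± 0.48, adjusted p = 5.2e-05), a phosphatidate phosphatase and coregulator. The transcription factor genes Cebpb (1.57 ± 0.37), Foxo3 (1.43 ± 0.14), Klf15 (1.17 ± 0.20) and Foxo1 (0.79 ± 0.16) and the aminotransferase gene Gpt2 (1.25 ± 0.24) also rose. Pdk4, which restrains pyruvate oxidation (-2.74 ± 0.50), and the cell cycle inhibitor gene Cdkn1a (-1.58 ± 0.36) fell. In F, Per1 (3.32 ± 0.66), Lpin1 (1.89 ± 0.44), Gpt2 (1.04 ± 0.24) and Foxo3 (0.77 ± 0.14) rose, and Irs2 (-2.09 ± 0.38) and Cdkn1a (-1.41 ± 0.37) fell.

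In LKO the genes that rose were Gpt2 (1.04 ± 0.24, adjusted p = 0.0453), and Cdkn1a (2.17 ± 0.37, adjusted p = 0.0139), which fell in both controls. Cdkn1a averaged 14.7 ± 9.39 CPM (SD, n = 3) at CT2 and 66.3 ± 8.91 at CT14 in LKO, against 6.88 ± 1.25 and 2.58 ± 0.906 in F. Its time difference was higher in LKO than in F by 3.59 ± 0.52 (adjusted p = 0.00284) and in KO than in WT by 2.2 ± 0.51 (adjusted p = 0.0438). In KO, 23 of the 30 genes had a difference above 0 and none passed. The time difference was lower in KO than in WT for Lpin1 (-4.0 ± 0.63, adjusted p = 0.00247) and Foxo3 (-1.43 ± 0.19, adjusted p = 0.000381) and higher for Irs2 (2.85 ± 0.52, adjusted p = 0.0074). Irs2, an insulin receptor substrate, was also the gene of this list that passed between the knockouts, lower in LKO than in KO by 3.23 on the log2 scale (-3.23 ± 0.52, adjusted p = 0.032). It averaged 54.6 ± 18.4 CPM at CT2 and 19 ± 0.635 at CT14 in LKO, and 16.4 ± 5.01 and 53.5 ± 27.3 CPM in KO. The KO libraries at CT14, in replicate order, had 79.4, 25 and 56.2 CPM of Irs2 and 30.5, 30.7 and 60.3 CPM of Cdkn1a. Replicate 1 carried spermatid transcripts and replicate 3 had high interferon-stimulated genes. The tests of these genes were not repeated without them. Per1 did not pass in LKO (1.74 ± 0.62, adjusted p = 0.219) or KO (0.89 ± 0.61, adjusted p = 1). At CT14, 4 genes of the list were higher in KO than in WT, namely Cdkn1a (3.33 ± 0.39), Pdk4 (3.32 ± 0.51), Irs2 (2.27 ± 0.38) and Ddit4 (0.86 ± 0.21), an inhibitor of mTORC1 signalling, and 4 were lower, namely Lpin1 (-3.27 ± 0.47), Foxo3 (-1.47 ± 0.14), Sds (-1.11 ± 0.30) and Gpt2 (-1.02 ± 0.24). In LKO against F at that time Cdkn1a (4.68 ± 0.41) and Ddit4 (0.93 ± 0.21) were higher and Foxo3 (-0.71 ± 0.14) was lower.

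**Figure D4:**
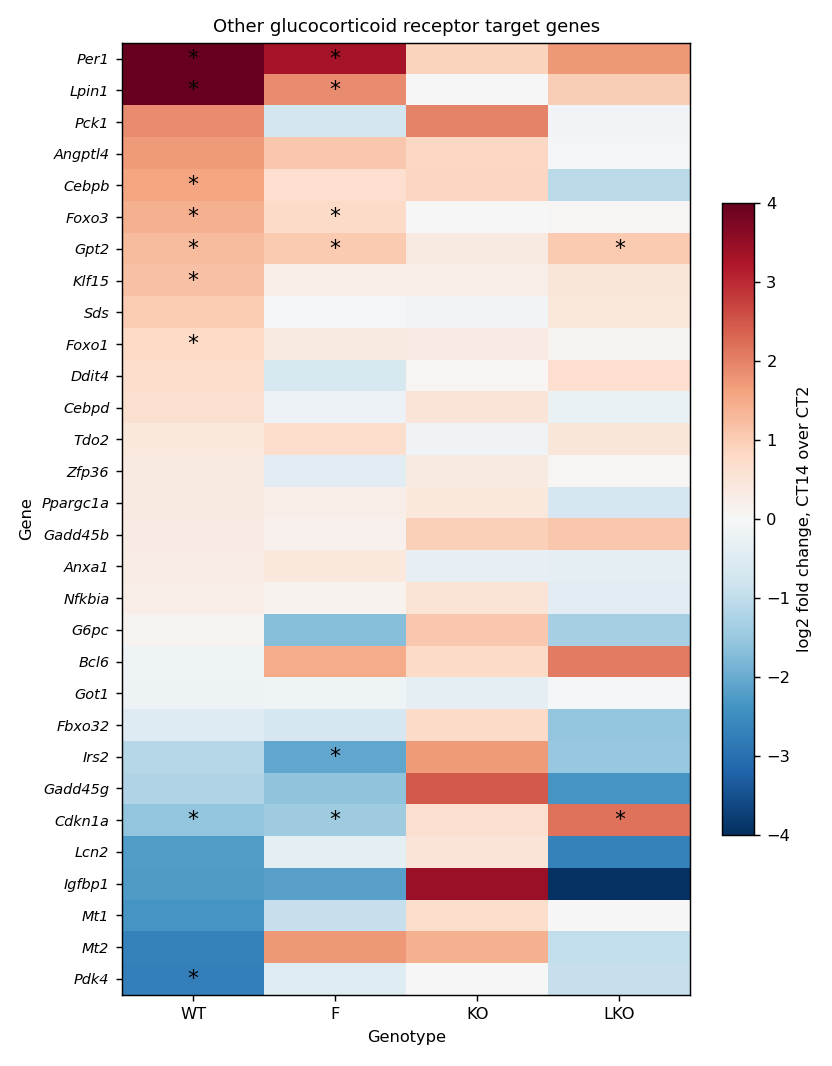
Heat map of the log2 difference between CT14 and CT2 for the 30 further receptor target genes in the 4 genotypes, with colours limited at -4 and 4 and an asterisk where the adjusted p was under 0.05. Asterisks mark 9 genes in WT, 6 in F, 2 in LKO (Cdkn1a and Gpt2) and 0 in KO.

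A second list held 15 genes of hormone supply and of the receptor's chaperones, of which 14 were tested, all but Hsd11b2. In WT the chaperone genes Hspa8 (log2 1.81 ± 0.41, adjusted p = 0.016), Stip1 (0.98 ± 0.23, adjusted p = 0.0208) and Hsp90ab1 (0.76 ± 0.19, adjusted p = 0.0276) rose. In F Hspa8 (1.53 ± 0.40), Serpina6 (1.58 ± 0.36) and Akr1d1 (1.19 ± 0.29) rose. None of the 14 passed in LKO or KO. Serpina6 encodes the corticosteroid-binding globulin that carries the hormone in blood, and Akr1d1 a steroid reductase of its breakdown. At CT14 Serpina6 was lower in KO than in WT (-1.44 ± 0.35, adjusted p = 0.0178) and lower in LKO than in F (-1.71 ± 0.36, adjusted p = 0.0121), with means of 394 ± 48.1 CPM in WT, 145 ± 86.2 in KO, 291 ± 70.8 in F and 89 ± 15.4 in LKO. Akr1d1 was lower in LKO at CT14 (-1.26 ± 0.29, adjusted p = 0.0247). Of 12 immediate early genes, which respond to acute stimuli, none passed for time in WT or KO, Atf3 rose in F, and Nr4a1 fell in LKO. Of 16 acute phase genes, the fibrinogen genes Fga, Fgb and Fgg fell in both WT and F and none passed in LKO or KO. At CT14 all 16 had a difference above 0 between KO and WT, with a median of 1.43, and 6 were higher in KO: Lbp (log2 2.46 ± 0.36, adjusted p = 0.000192), Fga (1.6 ± 0.28), Fgb (1.55 ± 0.28), Fgg (1.47 ± 0.30), Itih3 (1.48 ± 0.32) and Cp (1.39 ± 0.33). Without KO CT14 replicate 3, the library with high interferon-stimulated genes, the same 6 passed. Over both times 5 were lower in LKO than in F, namely Saa1 (-4.52 ± 1.07), Saa2 (-5.19 ± 1.36), Saa3 (-1.1 ± 0.30), Orm1 (-1.28 ± 0.35) and Hp (-1.15 ± 0.31, adjusted p = 0.0499), and 14 of the 16 had a difference below 0. None of the 5 passed without replicate 3 of F CT2, F CT14 and LKO CT2, the libraries with pancreatic transcripts or the lowest mitochondrially encoded sums. Of the immediate early genes Jun was lower in KO than in WT at CT14 (-1.17 ± 0.20, adjusted p = 0.00116).

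The genes most like Fkbp5 in pattern, by Pearson's r of log2 CPM over the 24 libraries among all tested genes, were St3gal5 (r = 0.964, Spearman's rho 0.945), Aifm2 (0.914 and 0.923), Klf13 (0.904 and 0.895), Ciart (0.901 and 0.860) and Usp2 (0.894 and 0.871). The libraries share the difference between the 8 groups, so these values describe a common pattern and carry no test. The genes were picked for this likeness in the same libraries. Their time differences therefore follow in part from the choice and are given as description only. Within the members the likeness to Fkbp5 was 0.726 for Tsc22d3, 0.707 for Tat and 0.705 for Zbtb16, and between -0.116 (Sgk1) and 0.430 (Dusp1) for the rest. St3gal5, a ganglioside synthase gene, had a log2 time difference of 1.76 ± 0.18 in LKO and 0.46 ± 0.17 in KO. Usp2, a ubiquitin protease gene, had 2.48 ± 0.35 in LKO and -0.27 ± 0.33 in KO. For Aifm2 the values were 0.54 ± 0.18 and 0.03 ± 0.18, and for Klf13 0.69 ± 0.20 and 0.15 ± 0.20. Ciart had 3.53 ± 1.05 and -0.14 ± 0.98, at low levels (means of 0.0601 CPM at CT2 and 0.725 CPM at CT14 in LKO).

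The authors' deposited tables list, for CT14 against CT2 in LKO, Fkbp5 (log2 1.88, adjusted p = 7.75e-13), Tsc22d3 (1.22, adjusted p = 4.56e-05) and Zbtb16 (1.38, adjusted p = 0.0255) as higher. The authors' deposited table for KO lists no member as changed with time. The authors' deposited table for F lists Fkbp5 and Tsc22d3, and that for WT lists Fkbp5, Tsc22d3, Tat, Zbtb16 and Errfi1. The fold changes of Fkbp5 and Tsc22d3 in LKO equal those of the fit used here at the decimals printed, while the adjusted p-values are smaller, and the LKO rise of Zbtb16 passes only in the authors' deposited table. How many of all genes the authors' deposited tables list as changed was not counted here. How many members they list therefore has no share of all genes beside it. Between genotypes, the fit used here called no member for LKO against F at CT14. The authors' deposited table lists Fkbp5 (log2 -1.04, adjusted p = 8.58e-08), Hsd11b1 (-0.81, adjusted p = 8e-05) and Nr3c1 (-0.49, adjusted p = 0.000782) as lower there. It lists Sgk1 (0.92, adjusted p = 0.000361) and Klf9 (0.43, adjusted p = 0.0311) as higher. The authors' deposited table for KO against WT at CT14 lists Sgk1 (0.70, adjusted p = 0.0288) as higher and Zbtb16 (-0.98, adjusted p = 0.0186) as lower beside Fkbp5 and Tat, and that for CT2 lists Tsc22d3 as higher (1.13, adjusted p = 3.73e-05). Over both times, the authors' deposited table for KO against WT lists Tat (-1.02, adjusted p = 0.0429) and not Fkbp5 (-1.4, adjusted p = 0.174), which the fit used here called. For LKO against F, at CT2 and over both times, Hsd11b1 is the member that the authors' deposited tables list.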

How the data were processed

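Liver RNA of 24 mouse libraries in 8 groups was analysed. The authors deposited estimated counts per gene, not normalized, and TPM values scaled by transcript length and library, and in further tables the log2 fold changes and adjusted p-values of their own comparisons. Per the submitters' processing notes, the tools were StringTie 1.3.1, HISAT2 2.2.1 and fastp 0.23.2, with build GRCm39. Which annotation and strand setting served for counting is not given in the sources used here, so reads of genes that overlap on opposite strands may be mixed. Members, lists and tests were chosen with earlier results of these data known, and the comparison of F with WT over time, that of the knockout effects and the lists of interferon-stimulated and mitochondrially encoded genes were added after values were seen. Genes named outside the members are mainly called genes of these lists and the 5 genes most like Fkbp5. Not every call in these lists is given, among them those of the receptor targets between genotypes over both times. The interferon, mitochondrial, spermatid and pancreatic sums are named for libraries that stood apart.

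The deposited estimated counts were fitted with edgeR 4.0.16 in R 4.3.3: filterByExpr (minimum count 10, minimum total 15), TMM scaling and 1 quasi-likelihood model of all 24 libraries with 8 group means. Unless another tool is named, p-values come from that fit, adjusted by Benjamini-Hochberg over 20514 genes, and rose, fell or passed means an adjusted p under 0.05. Errors of log2 differences are SE, and intervals are 95%. Total counts were 88995259 to 131544733 per library and limit counting error only. Low values clustered at multiples of 4 (1.18 to 1.42 times the frequency of adjacent values), so precision at low counts is overstated. The procedure was tested on simulated data. Alternatives were RLE scaling, DESeq2 1.42.0, no filter, counts divided by 4, limma 3.58.1 on log2(TPM + 0.1), a replicate block, only the groups compared, and leaving out single or doubtful libraries, for the acute phase genes chosen after values were seen. Same-numbered libraries of different groups deviated together in 5 of 24 pairs (correlations -0.15 to 0.31), 3 of these in LKO against F at CT2 and 2 in time in F. All 3 pairs were over 0.1 only in LKO against F at CT2, where the value with the replicate block is given beside the result, and elsewhere the numbers were not used as pairs.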

Additional observations from a re-analysis of the deposited data

Results flagged for a closer look

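Time differences that differed between genotypes by a direct test are collected here, as log2 values with their SE and the adjusted p of the edgeR quasi-likelihood test. Among the members this was Fkbp5, with a time difference lower in KO than in WT (-2.49 ± 0.38, adjusted p = 0.00179). Every WT library was higher at CT14 than at CT2, and the KO libraries of the 2 times overlapped.

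Among the further receptor target genes, the time difference was lower in KO than in WT for Lpin1 (-4.0 ± 0.63, adjusted p = 0.00247) and Foxo3 (-1.43 ± 0.19, adjusted p = 0.000381). It was higher in KO than in WT for Irs2 (2.85 ± 0.52, adjusted p = 0.0074) and Cdkn1a (2.2 ± 0.51, adjusted p = 0.0438). Cdkn1a also had a higher time difference in LKO than in F (3.59 ± 0.52, adjusted p = 0.00284), and Irs2 a lower one in LKO than in KO (-3.23 ± 0.52, adjusted p = 0.032). In KO at CT14 the highest Irs2 level was in replicate 1, with spermatid transcripts (79.4 CPM, others 25 and 56.2). The highest Cdkn1a level was in replicate 3, with high interferon-stimulated genes (60.3 CPM, others 30.5 and 30.7). Neither gene was tested again without these libraries. The acute phase gene Lbp, which encodes a protein that binds bacterial lipopolysaccharide, differed between the knockout effects as means of both times (1.94 ± 0.34, adjusted p = 0.0242). It averaged 339 ± 88 CPM in KO and 61.6 ± 6.59 CPM in WT at CT14, and 100.3 ± 7.23 CPM in LKO and 122 ± 57.5 CPM in F (SD, n = 3). KO CT14 replicate 3, which had high interferon-stimulated genes, is among these KO libraries, and without it Lbp still passed for KO against WT at CT14. The difference of Lbp between the knockout effects was not tested again without this library.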

How the results depend on the processing

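Fkbp5 passed for time in WT, F and LKO, for the time difference of KO against WT and for KO against WT at CT14 under every alternative run, as did Tsc22d3 for time in WT, Tat for KO against WT at CT14 and Hsd11b1 for LKO against F over both times. The number of members called for time in WT was 3, and 4 with DESeq2, which added Zbtb16, and with only the WT groups fitted Tat was lost and Errfi1 called. The number moved elsewhere. For time in F it was 1 in place of 2 with only the F groups fitted. For time in LKO it was 1 in place of 2 without the filter, with the replicate block, with only the LKO groups fitted, without replicate 3 of F CT2, F CT14 and LKO CT2 together, and without any single LKO library (1 to 1), in each case by the loss of Tsc22d3. For the time difference of KO against WT it was 3 with DESeq2 and 1 to 2 without single libraries, against 1. For KO against WT at CT2 it was 1 in place of 0 with DESeq2, with limma on TPM, with only the 2 groups fitted and without those replicates 3. For LKO against F at CT2 it was 0 in place of 1 without the filter, with limma on TPM, with the replicate block, with only the 2 groups fitted, without those replicates 3, without KO CT2 replicate 2 and KO CT14 replicate 1 together, and 0 to 1 without single libraries. For LKO against F at CT14 it was 0, and 2 with DESeq2, 3 with only the 2 groups fitted, and 1 with counts divided by 4, limma on TPM, the replicate block or without those KO libraries. For KO against WT over both times it was 2, and 0 with only these groups fitted or without those KO libraries, and 1 to 2 without single libraries. For LKO against F over both times it was 1, and 3 with DESeq2 or limma on TPM, 2 with the replicate block, with only these groups fitted or without those replicates 3, and 1 to 3 without single libraries, with 3 without F CT2 replicate 3. The replicate block changed no other member count. Of the acute phase genes, 8 in place of 6 were higher in KO than in WT at CT14 without those replicates 3, and in LKO against F over both times 0 in place of 5 were lower without them, 2 without KO CT14 replicate 3 and 4 without those KO libraries. The cause of these moves was not tested, apart from the fewer libraries in some settings.

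Over all tested genes, DESeq2 called more than edgeR: 959 against 521 for time in WT, 1091 against 545 in F, 595 against 174 in LKO and 41 against 0 in KO. It called 1065 against 521 genes for F against WT and 1065 against 642 for LKO against F over both times, 1764 against 1107 for KO against WT over both times, 377 against 106 for KO against WT at CT2, 1719 against 1089 at CT14, 419 against 82 for LKO against F at CT2, 759 against 354 at CT14, 391 against 164 for the time difference of KO against WT, 118 against 23 for that of LKO against F and 197 against 7 for that of LKO against KO. With only the groups compared fitted, edgeR called 35 for time in F, 42 for time in LKO, 1 for LKO against F at CT2 and 843 at CT14. Without those replicates 3, time in WT had 884 called genes and KO against WT at CT14 had 1647, and without those KO libraries time in KO had 4. The 48 member values with an unadjusted p under 0.05 kept their sign in every setting, and 39 of the other 112 changed sign in some setting. With 3 libraries a group, log2 differences of Zbtb16 and Dusp1 had an SE of 0.44 to 0.58 within a genotype, and a difference of 1.88 for Zbtb16 in WT did not pass.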
